A study of Mus musculus with 4 samples.

Results

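The protein kinase C (PKC) family was followed in the ventral midbrain, home of the dopamine neurons of substantia nigra and ventral tegmental area. Its 8 listed genes were Prkca, Prkcb, Prkcd, Prkce, Prkch, Prkci, Prkcq and Prkcz. For each, the probe sets annotated to that single symbol were taken, and the one with the highest mean over all arrays stood for the gene. The 8 genes are 8 of 19938 with such a probe set. All 8 lay above the filter on dim probe sets, as did 13587 genes in all. The family was chosen with differences between the 2 genotypes already known, so the differences of its members, and how many of them the fit over all genes called, are a description and support nothing.

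The arrays compared 2 RKO samples, from male mice whose genotype is labelled Rev-erba knock-out, with 2 WT samples from male mice labelled wild-type. REV-ERBα, encoded by Nr1d1, is a nuclear receptor that acts as a transcriptional repressor within the circadian clock. All mice were 10 to 15 weeks old, had a C57BL/6J background, and had lived for more than 10 days under 12 h of light a day followed by 2 days of constant darkness. The hour of collection, the deleted part of the gene and the number of mice behind an array are not given in the sources used here. Each array is labelled a biological replicate, and p-values refer to these 4 samples alone. The spread behind a gene's SE and p-value is drawn towards that of all tested genes, with 8.73 prior against 2 residual degrees of freedom.

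PKC enzymes are serine and threonine kinases that relay signals from receptors coupled to Gq proteins. Such receptors activate phospholipase C, which splits a membrane lipid into inositol trisphosphate, which releases calcium, and diacylglycerol, which stays in the membrane. The classical isoforms need calcium and diacylglycerol, the nPKC isoforms need diacylglycerol but not calcium, and the atypical isoforms respond to neither and work through protein partners. In neurons the family acts on ion channels, transmitter release and receptor trafficking.

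Nr1d1, the targeted gene, was lower in RKO. It had intensities of 1259 and 1229.7 in the RKO arrays, against 2897 and 3099 in the WT arrays (log2 difference -1.27, SE 0.0641, adjusted p = 0.00385 by limma over all genes without the filter), a level 58.5% below WT. The RKO values stayed well above the filter's intensity of 167, and since the deleted part is unknown, whether the probe set lies in it is unknown too. Of the tissue, markers of dopamine neurons had values above the filter in 10 of 10 cases, but so did 10 of 10 thalamic, 8 of 8 astrocyte and 8 of 8 oligodendrocyte markers, so the filter alone does not check the label. Pearson's r between arrays over the log2 values of all 35556 probe sets ran from 0.99343, between the WT arrays, to 0.995641, between the RKO arrays. The 3 lowest values, 0.99343 to 0.993822, were those of WT replicate 1 with each other array, and WT replicate 2 was closer to RKO replicate 2 (0.995176) than to WT replicate 1. RKO replicate 1 differed in its median intensity over tested genes, 539.8, against 559 in the other 3 arrays. Over all probe sets its median was instead the highest, 240.1, against 235.7 to 236.8 in the others.

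Prkch and Prkcd, both of the nPKC group, were lower in RKO than in WT. Prkch, which encodes PKCη, had intensities of 326 and 365 in the RKO arrays, against 548 and 568 in the WT arrays. Both RKO values lay below both WT values, and the gap between the groups was wider than the gap within either. The log2 difference was -0.69 (SE 0.0656), which puts the RKO mean 38.2% below that of WT. The replicates were 0.16 apart on the log2 scale in RKO and 0.05 apart in WT.

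Prkcd, which encodes PKCδ, had intensities of 2303 and 2420.1 in the RKO arrays, against 3459 and 3528 in the WT arrays. The groups did not overlap here either. The log2 difference was -0.57 (SE 0.057), a level 32.4% below WT. The replicates were 0.07 apart on the log2 scale in RKO and 0.03 apart in WT. In brain, Prkcd is known for strong expression in the thalamus, which borders the midbrain.

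**Figure D1:**
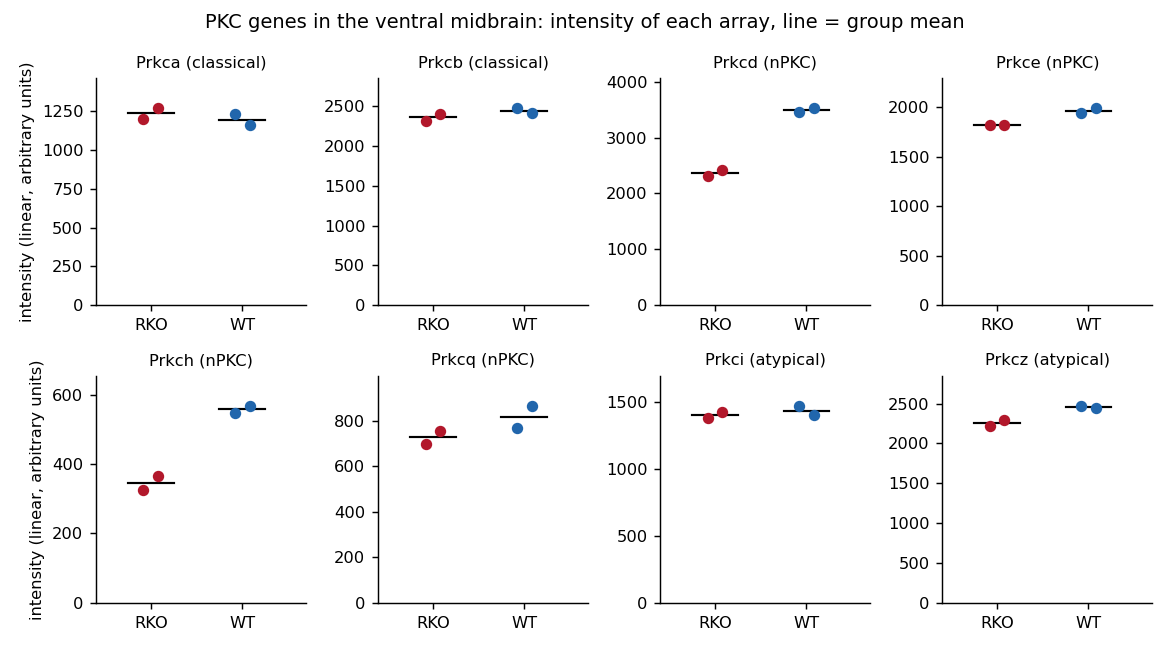
Intensity (linear scale, from 0) of each PKC gene in each of the 2 RKO and 2 WT arrays, with the group mean as a line. Prkch and Prkcd have both RKO points well below both WT points, while the points of Prkca and Prkci overlap between the groups.

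The other nPKC isoforms stood closer to WT. Prkce, which encodes PKCε, had 1816 and 1815 in RKO, against 1935 and 1989.9 in WT (log2 difference -0.11, SE 0.0552). Its 2 RKO arrays were nearly equal and both lay below WT. Prkcq, which encodes PKCθ, an isoform known for its role in T cells, had 697 and 755 in RKO, against 767 and 865 in WT (-0.17, SE 0.0707). These groups came close to touching, and the 2 WT arrays lay 0.17 apart on the log2 scale, as far as the groups did. Without WT replicate 1 the Prkcq difference was -0.25 and without WT replicate 2 it was -0.08. Of the T cell markers, 2 of 7 with a probe set were above the filter. In limma 0 passed and 0 had a raw p below 0.05, against 1.60% and 12.8% of all tested genes. Cd3e among them had 229.8 and 185 in RKO and 180.4 and 208 in WT. The summed intensity of the 7 was 5565 and 5706 in RKO and 5832 and 5943 in WT. Thy1, also tested, is expressed by neurons too. It alone had 4827 and 5037 in RKO and 5189 and 5272 in WT, most of that sum, so the sum does not measure T cells.

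Of the classical isoforms, Prkca, which encodes PKCα, had 1204 and 1272 in RKO, against 1234 and 1160.0 in WT (log2 difference 0.05, SE 0.0603). With all arrays it was the only member above 0, and its groups overlapped. Prkcb, which encodes PKCβ, had 2314 and 2401 in RKO, against 2476 and 2412 in WT (-0.05, SE 0.0563). Its RKO arrays lay just below the WT arrays, by less than the replicates differed among themselves.

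Of the atypical isoforms, Prkci, which encodes PKCι, a partner of the PAR polarity proteins, had 1379 and 1428 in RKO, against 1471 and 1399 in WT (log2 difference -0.03, SE 0.0577). These groups overlapped. Prkcz, which encodes PKCζ and, from a start within the gene, the brain form PKMζ that lacks the regulatory part, had 2217 and 2295 in RKO, against 2473 and 2450.1 in WT (-0.13, SE 0.0556). The groups were apart, with a gap that exceeded those within them.

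Prkch and Prkcz each had a second probe set with the same single symbol. The other Prkch probe set was dim, with 55.5 and 50.7 in RKO and 63.5 and 62.9 in WT, below the filter's intensity of 167 on every array (log2 difference -0.25). It moved the same way as the chosen probe set by a smaller amount. The other Prkcz probe set had 803 and 807 in RKO and 815 and 822 in WT, a difference of -0.02, against -0.13 at the chosen one. Which transcripts each of them reads was not analysed here.

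Across the family 7 of 8 differences lay below 0, where 56.8% of all tested genes did, and the median was -0.12, against -0.01 over all tested genes. In 6 of 8 members both RKO arrays lay below both WT arrays, as in 24.6% of all tested genes, and 41.8% of all tested genes were apart in either direction. In the fit over all genes 2 of the 8, Prkch and Prkcd, were past an adjusted p of 0.05, and 0 of the 8 were past it upwards. Over all tested genes 1.60% were past it, 0.964% lower and 0.640% higher. Because this contrast brought the family into view, nothing is read from these shares. The number of genes past the threshold was 218 with all arrays, 73 without RKO replicate 1 and 99 without RKO replicate 2. Without RKO replicate 1 the differences were -0.61 for Prkch and -0.53 for Prkcd.

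**Figure D2:**
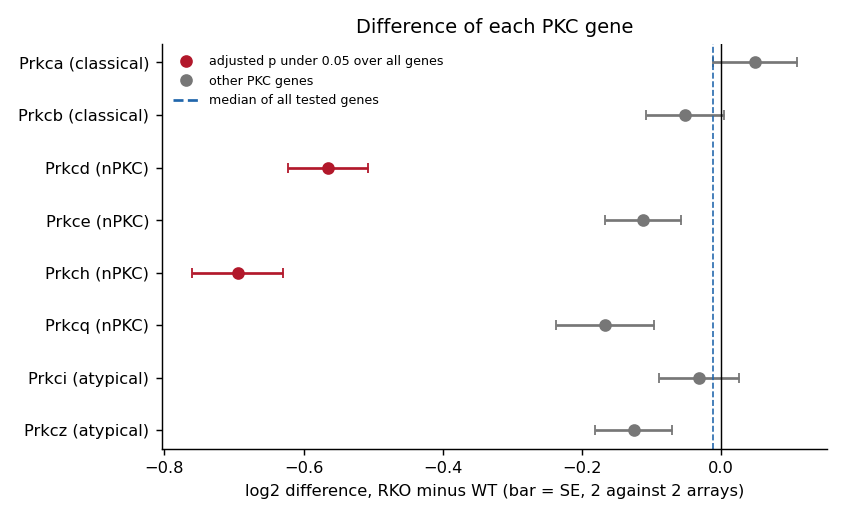
Log2 difference, RKO minus WT, of each PKC gene with its standard error (2 against 2 arrays), ordered by class, and the median of all tested genes as a dashed line. Prkch at -0.69 and Prkcd at -0.57 stand apart from the other 6 genes, which lie between -0.17 and 0.05.

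The genes whose values over the 4 arrays ran most like those of Prkch were found by Euclidean distance between log2 values, each centred on the gene's own mean. The nearest 5 of all tested genes were Efemp1 (distance 0.0706), Slc6a20a (0.0790), Slc13a4 (0.0798), Ramp3 (0.0872) and Islr (0.0878). Efemp1 encodes a matrix protein of the fibulin family. It had 361 and 413 in RKO, against 602 and 602 in WT. Slc6a20a encodes a transporter of proline and related imino acids. It had 908 and 1004 in RKO, against 1501 and 1473 in WT. Slc13a4 encodes a sulfate transporter, with 317 and 343 in RKO and 497 and 549 in WT. Among the family, Prkcd was nearest to Prkch, as the 11th gene in that order (distance 0.145), and Prkcq followed as the 499th. With 4 arrays in 2 groups, such a distance mostly reflects the size of the group difference.

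**Figure D3:**
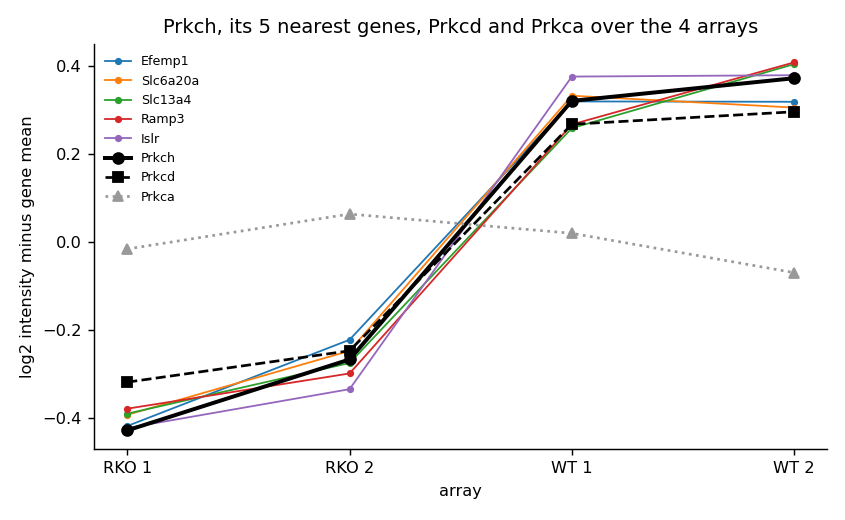
Log2 intensity minus the gene's own mean in each of the 4 arrays, for Prkch, its 5 nearest genes, Prkcd and Prkca. The lines of Prkch, Prkcd and the 5 genes lie low in both RKO arrays and high in both WT arrays, while Prkca stays near 0.

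Of these 5 nearest genes, Slc13a4 and Islr belong to the list of leptomeningeal markers and Ramp3 to that of thalamic markers, lists drawn up with earlier results of these data known. Of 10 tested leptomeningeal markers 7 fell and 0 rose, where 0.964% of all tested genes fell and 0.640% rose, and their median difference was -0.45. Ogn, a proteoglycan of connective tissue, was the deepest (-1.11, adjusted p = 1.7e-05), while Col1a1 (0.13, adjusted p = 0.351) and Col1a2 (0.07, adjusted p = 0.724) did not pass in limma. The summed intensity of the 12 listed markers was 4709.8 and 4809 in RKO, against 6148 and 6267 in WT, and Lum and Crabp2 among them lay below the filter. Fewer cells of a type and less RNA per cell cannot be told apart in such bulk tissue. The part of leptomeningeal tissue in the Prkch difference was not tested.

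Of 10 tested thalamic markers 3 fell, against 0.964% of all tested genes, and 0 rose, with a median of -0.23. Those that fell were Ramp3, which pairs with calcitonin-type receptors (-0.68, adjusted p = 4.52e-04), the nuclear receptor Rora (-0.36, adjusted p = 0.0109) and the vesicular glutamate transporter Slc17a7 (-0.34, adjusted p = 0.0218). Slc17a6, the other vesicular glutamate transporter of the list, did not pass in limma (-0.09, adjusted p = 0.564). Tcf7l2, a transcription factor that marks thalamic neurons, had 1935 and 1953 in RKO, against 1947 and 1934 in WT (0.0026, adjusted p = 0.992). Without RKO replicate 1 only Ramp3 of the 10 passed, and without WT replicate 2 Ramp3 and Rora did. The summed intensity of the 10 was 16094 and 16468 in RKO, against 18593 and 18879 in WT. The share of thalamic tissue in the Prkcd difference was not tested.

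The other marker lists were set beside the family in the same way. Of 10 markers of dopamine neurons 5 rose, against 0.640% of all tested genes, and 0 fell, with a median of 0.28 and a summed intensity of 17105 and 17405 in RKO, against 13068 and 13373 in WT. Th, the rate-limiting enzyme of dopamine synthesis, was highest among them (0.72, adjusted p = 7.45e-05). The count of 5 was 1, Th, with no filter on dim probe sets, 2 without RKO replicate 1, 1 without RKO replicate 2 and 3 without WT replicate 1. Of 8 endothelial markers 0 passed in limma (2 with a raw p below 0.05, against 12.8% of all tested genes). Their median was -0.08, and their sum was 9196 and 9508 in RKO and 9260.5 and 9417 in WT. Of 8 astrocyte markers 2 fell in limma, against 0.964% of all tested genes: Gfap (-0.51, adjusted p = 0.00136) and Aldh1l1 (-0.31, adjusted p = 0.0416). The astrocyte list had a median of -0.11 and a sum of 24912 and 25231 in RKO and 25627 and 25345 in WT. The count was 0 with no filter, and 1 with quantile normalization, with every probe set tested, and without RKO replicate 1 or WT replicate 1.

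Of 8 oligodendrocyte markers Opalin fell in limma (-0.30, adjusted p = 0.0446), where 0.964% of all tested genes fell. All 8 lay below 0, against 56.8% of all tested genes, with a median of -0.10. The sum was 32893 and 33169 in RKO and 35820.5 and 34981 in WT. Opalin passed without WT replicate 2 and lost its call without any other array, with no filter, with quantile normalization and with every probe set tested. Of 7 microglial markers 0 passed in limma and 0 had a raw p below 0.05, against 1.60% and 12.8% of all tested genes. Their median was -0.07, with a sum of 4560 and 4725 in RKO and 4773 and 4868 in WT. Of 6 markers of the lateral hypothalamus Pmch (-1.14, adjusted p = 1.4e-05) and Hcrt (-0.52, adjusted p = 0.0268), both peptide precursors, fell in limma, and Cartpt rose (0.50, adjusted p = 0.00143). Over all tested genes 0.964% fell and 0.640% rose. The median of the 6 was -0.05, and their sum was 3023 and 3045 in RKO and 2950.2 and 2988 in WT. Cartpt alone had 1498 and 1602 in RKO and 1083 and 1111 in WT. It made up a large part of that sum, so the sum does not show the fall of Pmch and Hcrt. Hcrt lost its call without RKO replicate 2, with quantile normalization and with no filter, and Cartpt lost its call with no filter.

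**Figure D4:**
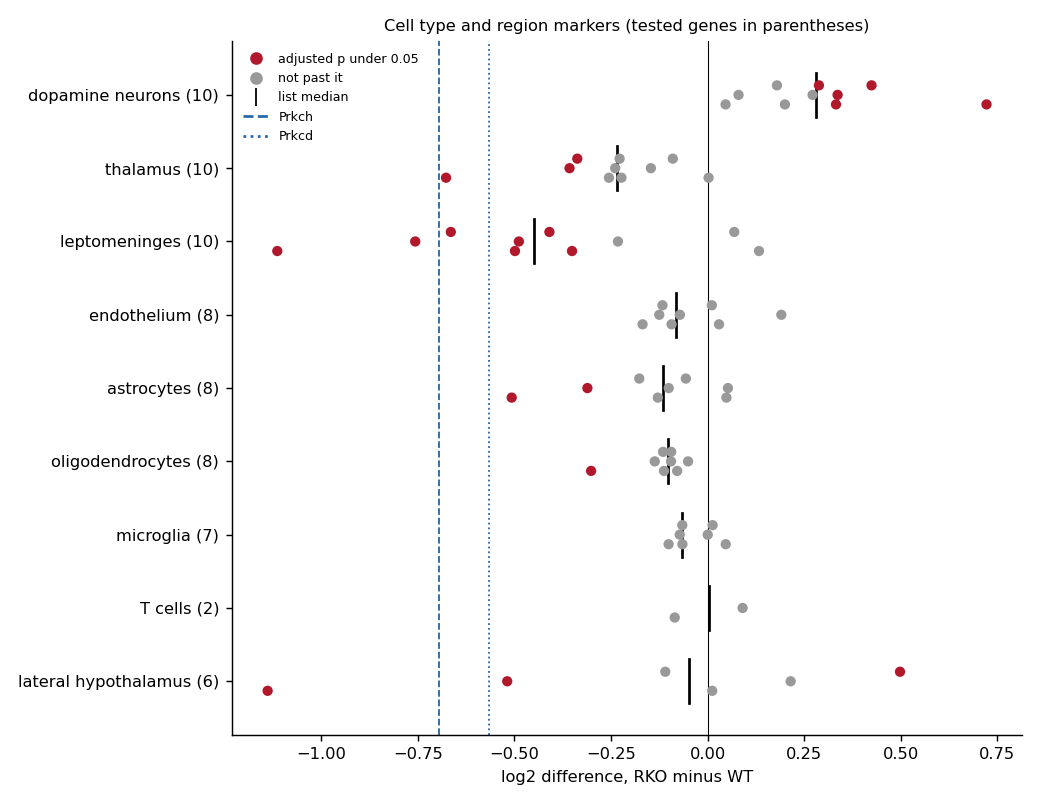
Log2 difference, RKO minus WT, of each tested gene in 9 lists of cell type and region markers, with the list median as a black bar and the differences of Prkch (dashed) and Prkcd (dotted) as lines. Leptomeningeal genes reach from -1.11 to 0.13 and thalamic genes from -0.68 to 0.0026, and dopamine neuron genes all lie above 0.

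The rest of the pathway was described from 8 lists of 99 genes sorted by role, of which 88 had a probe set with a single symbol and 81 were tested. Ednrb rose, 0 fell and 80 did not pass, so that 1 of 81 was past the threshold, against 1.60% of all tested genes. With a raw, unadjusted p below 0.05 there were 14 of 81, against 12.8% of all tested genes. Their median difference was -0.02, close to the -0.01 of all tested genes. The number past the threshold depended on the setting: it was 1 with all arrays, 3 without WT replicate 1 and up to 9 with an intensity trend in the variance.

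Upstream of PKC, 1 of 17 tested Gq-coupled receptors rose and 0 fell, where 0.640% of all tested genes rose and 0.964% fell. Of the 17, 5 had a raw p below 0.05 in limma, against 12.8% of all tested genes. Their median was 0.04, with 14 above 0 and 3 below, where 56.8% of all tested genes lay below 0. Ednrb, the endothelin receptor B, had intensities of 2431 and 2644 in RKO, against 1323 and 1344 in WT. The groups did not overlap, and the log2 difference was 0.93 (SE 0.0607, adjusted p = 2.47e-05 in limma). Chrm3, the muscarinic receptor M3, had 776 and 799 in RKO, against 899 and 965 in WT (-0.24, SE 0.0595, adjusted p = 0.0808). It did not pass, although its groups did not overlap. Under other settings Chrm3 did pass: with the filter at the 60th percentile, median centring, an intensity trend, a pseudocount of 32 and crossed replicate numbers. With median centring its SE, 0.0732, was that of every PKC gene, so its own spread between replicates did not enter.

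Among 14 tested Gq proteins and phospholipases C 0 passed in limma, against 1.60% of all tested genes. With a raw p below 0.05 there were 2, against 12.8% of all tested genes, and the median was -0.07. Plcd1, a phospholipase C of the delta group, had 386 and 399 in RKO, against 449 and 505 in WT (-0.28, SE 0.0666, adjusted p = 0.0748). Plcb4, a phospholipase C driven by Gq and known from Purkinje cells and thalamus, had 2623 and 2737 in RKO, against 3084 and 2951 in WT (-0.17, adjusted p = 0.226). For both, the RKO arrays were the lower ones. Without WT replicate 1 Plcd1 stood at -0.36. With all arrays Plcd1 passed under a filter at the 60th percentile, median centring, an intensity trend, a pseudocount of 32, and straight or crossed replicate blocks. With median centring and with crossed blocks its SE was that of every PKC gene, so its own spread did not enter. Plcb4 passed with an intensity trend. Of the inositol trisphosphate receptors, which release calcium, Itpr2 (-0.11, adjusted p = 0.464) and Itpr3 (0.11, adjusted p = 0.529) were tested and did not pass, and their median was -0.0015.

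Of 10 tested enzymes that consume diacylglycerol 0 passed in limma, against 1.60% of all tested genes. Of these, 2 had a raw p below 0.05, against 12.8% of all tested genes, and the median was -0.07. Dagla, the lipase that makes the endocannabinoid 2-arachidonoylglycerol from it, had 933 and 989 in RKO, against 1093 and 1074 in WT (-0.17, adjusted p = 0.216). Dgkk, a diacylglycerol kinase, had 495 and 496 in RKO, against 525 and 559 in WT (-0.13, adjusted p = 0.380). Of 9 other proteins that bind diacylglycerol 0 passed in limma (2 with such a raw p), with a median of -0.07. Unc13c, a priming factor of synaptic vesicles, had 2236 and 2248 in RKO, against 1986 and 1872 in WT (0.22, adjusted p = 0.107). Rasgrp1, an activator of Ras, had 3225 and 3292 in RKO, against 3724 and 3728 in WT (-0.19, adjusted p = 0.135). These 2 genes lay apart between the groups in opposite directions without passing. Both passed with an intensity trend, and Unc13c also with the filter at the 60th percentile and with crossed replicate numbers.

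Related kinases and the targets of PKC showed no member past the threshold. Over all tested genes 1.60% were past it, and 12.8% had a raw p below 0.05. Of 5 tested related kinases 0 passed in limma (0 with a raw p below 0.05), with a median of 0.0098. Among them Prkd3 of the protein kinase D group stood at -0.12 (adjusted p = 0.491) and Prkd2 at 0.03 (adjusted p = 0.933, and -0.07 without RKO replicate 2). Pdpk1, the kinase that phosphorylates the activation loop of PKC, stood at 0.0098. Of 11 tested substrates 0 passed (2 with such a raw p), with a median of -0.04. Ppp1r14a, an inhibitor of myosin phosphatase that PKC switches on, had 1302 and 1467 in RKO, against 1616 and 1771 in WT (-0.29, SE 0.0719, adjusted p = 0.0827). Gja1, the gap junction protein of astrocytes, had 3063 and 3083 in RKO, against 2637 and 2643 in WT (0.22, SE 0.0545, adjusted p = 0.0848). Without WT replicate 1 Ppp1r14a stood at -0.36. With all arrays Ppp1r14a passed under a filter at the 60th percentile, median centring, an intensity trend, a pseudocount of 32, and straight or crossed replicate blocks. With median centring its SE was that of every PKC gene, so its own spread did not enter. Gja1 passed with that filter, with an intensity trend and with crossed replicate numbers. The widely used substrates Marcks (0.10, adjusted p = 0.540), Gap43 (-0.05, adjusted p = 0.799) and Nrgn (-0.05, adjusted p = 0.814) did not pass.

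Of 13 tested anchors, partners and phosphatases of PKC 0 passed in limma, against 1.60% of all tested genes. With a raw p below 0.05 there was 1, against 12.8% of all tested genes, and the median was -0.02. Wwc1, which encodes KIBRA, a partner of PKMζ, had 468 and 496 in RKO, against 567 and 554 in WT (-0.22, adjusted p = 0.109). Wwc1 passed with the filter at the 60th percentile, with an intensity trend and with crossed replicate numbers. Pawr, an inhibitor of atypical PKC, had 245.9 and 219.6 in RKO, against 215 and 207 in WT (0.14, adjusted p = 0.418). Cavin3, which binds PKCδ, stood at -0.05 (adjusted p = 0.855). The phosphatases Phlpp1 (-0.06, adjusted p = 0.786) and Phlpp2 (0.10, adjusted p = 0.541), which dephosphorylate PKC, lay on opposite sides of 0 and did not pass.

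**Figure D5:**
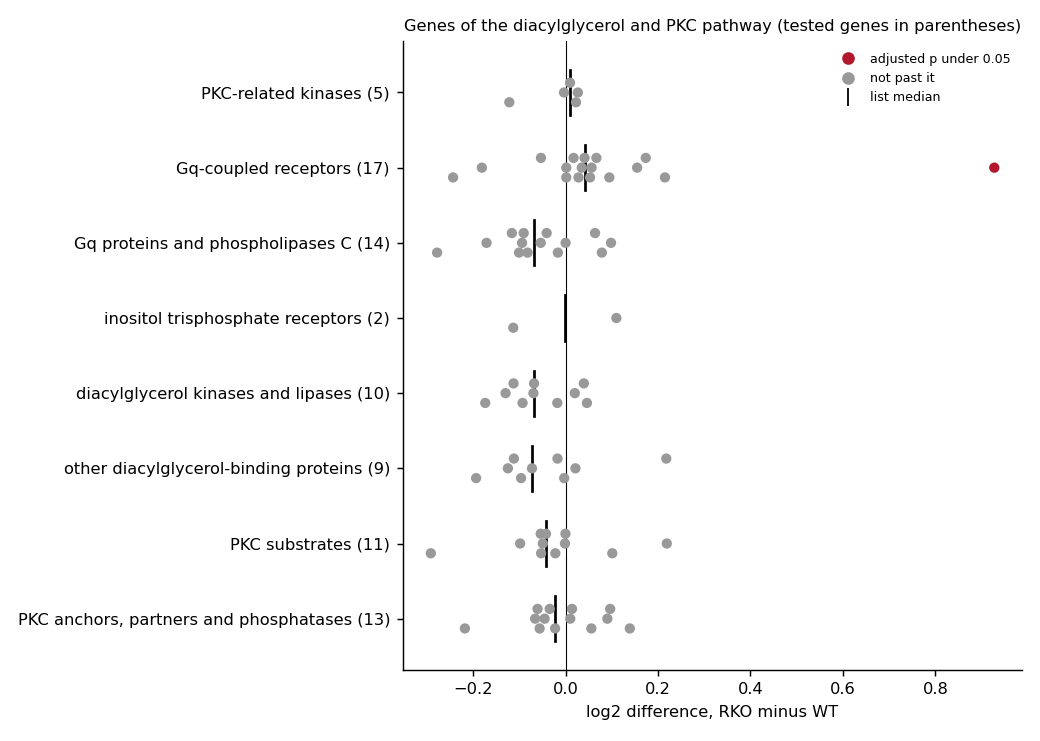
Log2 difference, RKO minus WT, of each tested gene in 8 lists of the diacylglycerol and PKC pathway, with the list median as a black bar. Ednrb at 0.93 is the single point past the threshold, and all others lie between -0.29 and 0.22.

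Promoter sequences were available from RefSeq (GRCm38.p6) for 6 of the 8 genes, with 9 start sites in all, each as 250 bases before and 50 after the start. Prkch and Prkce had no entry. Those of Prkcd, the member with an entry that differed most between the genotypes, are shown with the motif found in capitals. The window of the start site farther upstream is chr14:30626159-30626458, and that of the inner start site is chr14:30610261-30610560. Both windows are on the minus strand and written 5′ to 3′.
Prkcd upstream promoter: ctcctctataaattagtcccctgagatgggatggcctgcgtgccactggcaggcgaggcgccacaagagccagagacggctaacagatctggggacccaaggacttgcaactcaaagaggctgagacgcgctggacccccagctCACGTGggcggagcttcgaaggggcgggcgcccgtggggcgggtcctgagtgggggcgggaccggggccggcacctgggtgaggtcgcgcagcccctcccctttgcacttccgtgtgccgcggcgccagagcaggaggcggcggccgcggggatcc
Prkcd inner promoter: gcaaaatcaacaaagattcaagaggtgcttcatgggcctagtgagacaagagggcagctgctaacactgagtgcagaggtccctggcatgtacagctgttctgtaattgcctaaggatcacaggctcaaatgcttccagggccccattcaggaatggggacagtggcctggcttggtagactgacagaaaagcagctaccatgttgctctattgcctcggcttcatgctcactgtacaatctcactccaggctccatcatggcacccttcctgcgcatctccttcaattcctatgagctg
The capitals mark CACGTG, the E-box that BMAL1 and CLOCK bind. AGGTCA, the core of the site that REV-ERBα and ROR factors bind, and TGACTCA, the AP-1 site through which phorbol esters and PKC act on genes, were searched as well, all on both strands. The E-box was found in 1 of the 9 promoters of the family, against 7.15% of all 32851 promoters in the table. AGGTCA was found in 0 of 9, against 16.3% of all, and TGACTCA in 0 of 9, against 5.2% of all. A match of letters is a description of these windows and not a binding site.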

How the data were processed

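Gene expression was measured on Affymetrix arrays, 2 RKO and 2 WT. The deposited table holds intensities on a linear scale, 1 for each probe set of an array. Per the submitters' processing notes the authors used GCOS and RMA, without versions or settings in the sources used here, and RMA as usually run removes shifts common to most genes. Here the values were taken to log2 with no pseudocount. Of 35556 probe sets, 21789 had 1 gene symbol in the platform annotation, 1621 had several and 12146 were unnamed here, and only the first kind was used. Where a gene had several, the brightest over 4 arrays was taken, and genes under the 40th percentile (log2 7.38) of the whole table were left out. The genotypes were compared with limma 3.58.1 (lmFit, eBayes) under R 4.3.3, without covariates and with 2 residual and 8.73 prior degrees of freedom. P-values are two-sided and adjusted after Benjamini and Hochberg over all tested genes, with a threshold of 0.05. The fit was tested on simulated data, the outcome of which is not given here and lends no weight to the results. An exact permutation test of 2 against 2 cannot go below p = 0.333, so none was run. A level depends on its probes, so beyond the choice of the brightest per gene and the filter, probe sets were not ranked by level. The summed intensities of marker lists serve only to set arrays side by side. Precision is limited by the number of arrays. Of the pathway genes, those past the threshold and the 2 of each list with the largest difference were named, with the 5 genes nearest to Prkch. Other pathway and marker genes named were chosen after their values were seen. The members and lists were chosen with earlier results of these data known.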

Additional observations from a re-analysis of the deposited data

How the results depend on the processing

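The family was chosen on this contrast, so its values under other settings of the same 4 arrays describe those settings and are no independent support. Over the 12 other settings tried and a crossed replicate pairing added after the data were seen, the difference of Prkch ran from -0.78 to -0.61 and that of Prkcd from -0.60 to -0.53, and the count of PKC genes past the threshold was 2 each time. Of the 104 values of PKC genes under alternatives 1 turned direction: Prkci was 0.0041 without WT replicate 1 and ran from -0.068 to 0.0041 with an array left out. Prkd2 turned to -0.066 without RKO replicate 2 and ran from -0.066 to 0.12 with an array left out. The cause was not tested. Genes past the threshold numbered 31 with no filter, where more genes are tested, 455 with median centring and 499 with an intensity trend, and 73 to 293 with an array left out. Pathway genes past it numbered 8 with the filter at the 60th percentile, 4 with median centring, 4 with a pseudocount of 32, 9 with an intensity trend, and 1 to 3 with an array left out. Replicate numbers were shared by the groups, but nothing in the labels pairs the samples; with the replicate block 259 genes, 3 of the pathway and 2 PKC genes passed. The same-numbered samples' deviations correlated at -0.11, and with the numbers crossed 696 genes and 8 of the pathway passed. In that fit every PKC gene had the same SE, 0.0656, as did Plcd1 of the pathway. With median centring every PKC gene had 0.0732, as did Chrm3, Plcd1 and Ppp1r14a. For these genes their own spread between replicates thus did not enter, so a pass there does not weigh that spread. Nothing about a pairing is read from the 696. The leptomeningeal count of 7 was 3 with no filter and 5 to 7 with an array left out, and the thalamic count of 3 was 1 with no filter, 7 with median centring and 1 to 3 with an array left out. The second Prkch probe set lay below the filter on every array, which limits its reading, and why its difference was smaller was not tested.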
